A study of Homo sapiens with 12 samples.

Results

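The genes described here are 48 genes of protein processing in the endoplasmic reticulum (ER) and of the unfolded protein response (UPR), listed by name from what they are known to do, out of 58288 genes in the table of counts. They were chosen with earlier results of these data known. They fall into 12 ER chaperones and cochaperones, 6 protein disulfide isomerases and relatives, 9 genes of ER-associated degradation, 14 genes of the translocon, the translocon-associated protein complex (TRAP) and the oligosaccharyltransferase (OST), and 7 UPR sensors and transcription factors. That last role also holds *PPP1R15A*, which encodes a phosphatase subunit and is neither a sensor nor a transcription factor. Their RNA was measured by RNA-seq in HL-60/S4, an established human promyelocytic leukemia cell line. The 4 groups held 3 libraries each: promyelocytes (undifferentiated) with the vehicle, water; promyelocytes with TNF-α at 16 ng/mL for 2 h; granulocytes, differentiated for 4 days in ATRA (all trans retinoic acid) at 1 µM, with vehicle; and granulocytes with TNF-α in the same way. Each library came from its own flask of cells at passage 8 of 1 line. ATRA was present in both granulocyte groups. Because promyelocytes and granulocytes were treated in separate experiments, cell type and experiment cannot be told apart in the levels, which are set side by side without a test. Differences of the TNF-α responses between the cell types carry the same limit. Flasks of the same experiment do not measure the variation between experiments.

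Proteins that enter the secretory pathway are threaded through the translocon into the ER, where they are glycosylated, folded by chaperones and linked by disulfide bonds, and those that fail to fold are sent back out to the proteasome. When unfolded proteins build up, the sensors IRE1α, PERK and ATF6 start the UPR, which slows translation and raises the genes of folding and degradation. Promyelocytes make large amounts of granule proteins that pass along this route, whereas more mature granulocytes make few.

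The libraries held 22829189 to 31895061 read pairs assigned to genes, and the lowest count of any of the 48 genes in any library was 195, for *DNAJB9*. All 48 genes passed the filter on low counts in both cell types. Values below are read pairs per 1000000 (CPM) on library sizes normalized by TMM, and adjusted p-values are from edgeR's quasi-likelihood test with Benjamini-Hochberg adjustment over all genes tested, with a threshold of 0.05 for a call. The 6 promyelocyte markers summed to 7810 to 8420 CPM in vehicle-treated promyelocytes and to 2240 to 2480 CPM in vehicle-treated granulocytes, and the 8 granulocytic markers to 168 to 176 and 4850 to 5130 CPM, so that each list was higher in the cell type of its label. Lymphocyte markers summed to at most 15.3 CPM and erythroid and megakaryocytic markers to at most 2.15 CPM in any library. The promyelocyte marker *ELANE* was nearly absent, at 1.77 ± 0.287 CPM (SD, n = 3) in vehicle-treated promyelocytes and 0.0223 ± 0.0194 CPM in vehicle-treated granulocytes. The 6 monocyte and macrophage markers, with *MARCO* at 0 in every library, summed to 4.5 to 5.09 CPM in vehicle-treated promyelocytes. In granulocytes they summed to 101 to 104 CPM with vehicle and 68.1 to 74.3 CPM with TNF-α. Nearly all of this was *CSF1R*, at 49.9 ± 0.981 and 32 ± 2.05 CPM, and *VSIG4*, at 51.8 ± 0.452 and 39.7 ± 1.43 CPM. The low *CD14* stood at 0.187 ± 0.0183 and 0.307 ± 0.107 CPM. In granulocytes the summed granulocytic markers stood at 5420 to 5720 CPM with TNF-α. Single granulocytic markers went both ways there, with *NCF1* at 1220 ± 78.1 CPM with vehicle and 1940 ± 130 CPM with TNF-α and *ITGAM* at 299 ± 10 and 250 ± 9.42 CPM. In promyelocytes with TNF-α the promyelocyte markers summed to 6460 to 7340 CPM and the granulocytic markers to 280 to 294 CPM, outside their vehicle ranges. The part of these shifts in the results below was not tested, and in bulk RNA fewer cells of a type cannot be told apart from less RNA per cell.

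In promyelocytes TNF-α raised 5 of the 48 genes and lowered 2, which is 14.6% of them beside 14.8% of all 16250 genes tested. In granulocytes it raised 17 and lowered 11, or 58.3% beside 49.3% of 16944 genes. By direction, 8.15% of all genes were called higher and 6.65% lower in promyelocytes, and 24.4% and 24.8% in granulocytes. The share of ER genes called was therefore at the background in promyelocytes and near it in granulocytes, and the changes were small. The median size of a called log2 fold change in promyelocytes was 0.23 for ER genes and 0.42 for all genes, and in granulocytes it was 0.27 for ER genes and 0.47 for all. The median log2 fold change of the 48 genes was 0.02 in promyelocytes and 0.05 in granulocytes, beside -0.01 and 0 for all genes tested. The RNA of these genes made up 1.36% to 1.41% of all counts in the promyelocyte libraries, with or without TNF-α. In granulocytes it made up 0.94% to 0.957% with vehicle and 0.894% to 0.908% with TNF-α.

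The direction in granulocytes leaned on the scaling. With library sizes taken from total counts, all granulocyte log2 fold changes shifted by -0.13 at the median, and 8 of the 48 genes were called higher and 18 lower in place of 17 and 11. TMM factors were 1.03 to 1.06 in the vehicle-treated granulocyte libraries and 0.941 to 0.972 in those with TNF-α. The 9 increases that were not called with total counts were those of *DNAJC10*, *PDIA3*, *ERP44*, *DERL1*, *VCP*, *SSR4*, *STT3A*, *EIF2AK3* and *DDIT3*.

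**Figure D1:**
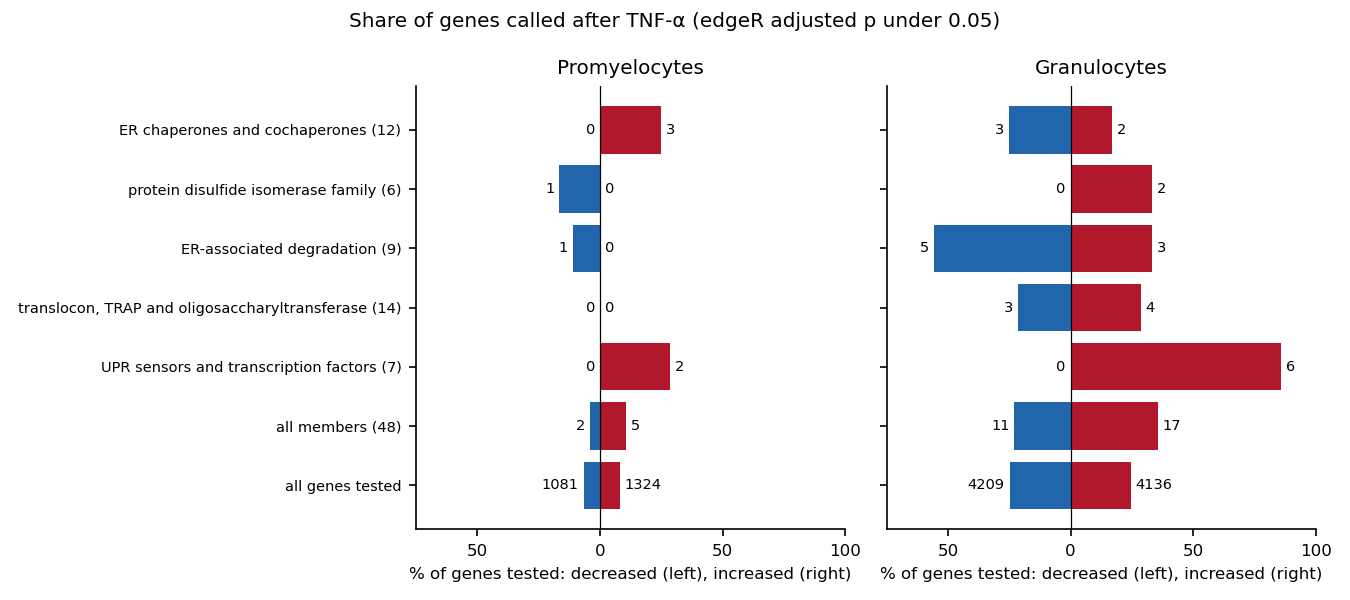
Share of genes called after TNF-α, in percent of genes tested, for each role (number of genes in brackets), all 48 ER genes and all genes tested; bars to the right are increases, bars to the left decreases, and the numbers beside them are counts of genes. In granulocytes 6 of 7 UPR sensors and transcription factors were increased and 0 decreased (4 and 1 with total counts), while 5 of 9 genes of ER-associated degradation were decreased (also 5 with total counts).

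Counts by role are a description, and no test compared the roles. In granulocytes 6 of 7 sensors and transcription factors rose and 0 fell, with a median log2 fold change of 0.55, and 3 of 9 genes of ER-associated degradation rose while 5 fell, with a median of -0.22. The 6 increases in the first of these roles include *PPP1R15A*, the phosphatase subunit gene. Of the 12 chaperones 2 rose and 3 fell, of the 14 translocon, TRAP and OST genes 4 rose and 3 fell, and of the 6 protein disulfide isomerases 2 rose and 0 fell. These counts of 0 decreases in edgeR were also 0 at an unadjusted p under 0.05 and with DESeq2, but not with total counts, which gave 4 increases and 1 decrease for the sensors and transcription factors and 0 increases and 2 decreases for the protein disulfide isomerases. With total counts the chaperones had 1 increase and 6 decreases, the genes of ER-associated degradation 1 and 5, and those of the translocon, TRAP and OST 2 and 4. In promyelocytes 3 chaperones and 2 sensors or transcription factors rose, 1 protein disulfide isomerase and 1 gene of ER-associated degradation fell, and 0 of the 14 translocon, TRAP and OST genes passed in edgeR, which was also 0 at an unadjusted p under 0.05 and with DESeq2.

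Promoter sequence is shown here because UPR factors are known to bind defined letters before the start of their target genes, and the genes that carry those letters moved in different directions. The windows of RefSeq (GRCh38.p14), from 250 bases before to 50 after each start, covered 44 of the 48 genes in 56 windows and 27305 genes in all, with no entry for *PDIA3*, *DERL1*, *RPN1* and *STT3B*. The ER stress response element (ERSE), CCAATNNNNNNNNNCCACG on either strand, was in the windows of 7 of the 44 genes (15.9%) and of 25 of all genes (0.0916%). The 7 genes were *HSPA5*, *HSP90B1*, *CALR*, *CANX*, *CRELD2*, *PDIA6* and *XBP1*. Read with CCAAT first and the fixed letters in capitals, their matches were as follows, with a pair in *HSP90B1*; the *CANX* match lay in 3 overlapping windows.
*HSPA5*: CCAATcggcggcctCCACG
*XBP1*: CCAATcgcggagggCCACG
*CRELD2*: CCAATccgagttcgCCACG
*HSP90B1*, distal: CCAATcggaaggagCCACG
*HSP90B1*, proximal: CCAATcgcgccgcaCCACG
*CALR*: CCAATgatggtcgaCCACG
*CANX*: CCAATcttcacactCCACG
*PDIA6*: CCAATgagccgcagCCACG

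After TNF-α in granulocytes, *XBP1* and *CRELD2* rose, *HSPA5* and *HSP90B1* fell, and *CALR*, *CANX* and *PDIA6* had log2 fold changes of 0.08, 0.02 and 0.06 that did not pass the test. The *HSP90B1* value was -0.12, and its call was lost in 7 of the 9 alternatives that kept all libraries. In promyelocytes *XBP1* and *CRELD2* rose, and the other 5 ERSE genes had log2 fold changes from -0.03 to 0.11 that did not pass. The related element ERSE-II, ATTGG and CCACG with 1 base between them on either strand, was in the windows of *HYOU1*, *SDF2L1* and *HERPUD1*, 3 of the 44 genes (6.82%) and 19 of all genes (0.0696%). The core of the UPR element, TGACGTGG, was in those of *HYOU1*, *DNAJC10*, *VCP*, *SEC62*, *SSR3* and *SSR4* (13.6%, beside 0.927% of all genes), and in *HYOU1* its letters overlapped the ERSE-II match. The C/EBP-ATF core, TGATGNAA, was found in *HERPUD1* alone (2.27%, beside 4.46%), and kappaB matches in 6 of the 44 genes (13.6%, beside 13.3%). All motifs were searched on both strands, and a match is a description of letters and not of binding.

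The stretches just before the start of 4 genes that are followed below are given on the strand of the gene, 5′ to 3′, cut so that they hold no annotated exon, with the ERSE in capitals and, in *HERPUD1*, the C/EBP-ATF core (read as TTGCATCA on this strand) and the ERSE-II in capitals. They lie at chr9:125241383-125241543 on the minus strand for *HSPA5*, chr22:28800598-28800682 on the minus strand for *XBP1*, chr22:49918459-49918633 on the plus strand for *CRELD2* and chr16:56931942-56932047 on the plus strand for *HERPUD1*.
*HSPA5*: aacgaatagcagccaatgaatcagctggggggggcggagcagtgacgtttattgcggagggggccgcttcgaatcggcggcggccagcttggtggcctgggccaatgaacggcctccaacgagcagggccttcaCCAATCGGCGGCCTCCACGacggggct
*XBP1*: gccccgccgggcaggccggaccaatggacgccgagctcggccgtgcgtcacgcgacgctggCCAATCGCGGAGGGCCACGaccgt
*CRELD2*: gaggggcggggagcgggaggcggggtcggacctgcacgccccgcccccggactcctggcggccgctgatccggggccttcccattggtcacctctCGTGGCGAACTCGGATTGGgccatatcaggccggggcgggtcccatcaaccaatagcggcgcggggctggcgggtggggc
*HERPUD1*: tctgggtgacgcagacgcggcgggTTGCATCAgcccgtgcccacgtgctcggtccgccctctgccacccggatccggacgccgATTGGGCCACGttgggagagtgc

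Among the sensors and transcription factors the largest response was that of *PPP1R15A* (ENSG00000087074.7), which encodes GADD34, the subunit that directs protein phosphatase 1 to dephosphorylate eIF2α and so lets translation resume. Its level was 18.3, 15.4 and 15.8 CPM in vehicle-treated promyelocytes and 36.2, 31 and 35.1 CPM with TNF-α. In granulocytes it was 18.7, 17.7 and 20.9 CPM with vehicle and 94, 81.4 and 75.7 CPM with TNF-α. Every TNF-α library was above every vehicle library in both cell types, as for 16% of all genes in promyelocytes and 27.3% in granulocytes, and the vehicle levels lay close together. The log2 fold change was 1.04 ± 0.0862 (SE; adjusted p = 1.81e-08) in promyelocytes, a 2.06-fold rise, and 2.13 ± 0.0712 (adjusted p = 9.94e-25) in granulocytes, a 4.38-fold rise. The granulocyte response was larger by 1.13 ± 0.125 on the log2 scale (adjusted p = 1.22e-07, interaction in edgeR; 24% of all genes were called in this test, 14.1% higher and 9.88% lower in granulocytes).

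*XBP1* (ENSG00000100219.16) encodes the transcription factor whose mRNA is spliced by IRE1α to give its active form; counts per gene do not tell the spliced from the unspliced RNA. It stood at 215, 188 and 184 CPM in vehicle-treated promyelocytes and 223, 231 and 222 CPM with TNF-α, a narrow separation. In granulocytes it stood at 51.9, 50.9 and 50.3 CPM with vehicle and 93.8, 102 and 99.4 CPM with TNF-α, so that the groups were far apart. The log2 fold change was 0.95 ± 0.0531 (edgeR adjusted p = 9.86e-18) in granulocytes and 0.20 ± 0.0629 (adjusted p = 0.0325) in promyelocytes. The promyelocyte call was lost when vehicle library 2 or 3 or TNF-α library 2 or 3 was left out, with log2 fold changes of 0.16 to 0.28 over the 6 such fits. The responses differed by 0.78 ± 0.0852 (edgeR interaction, adjusted p = 8.48e-08). Differences of responses come from 1 fit of all 12 libraries, so they can depart slightly from a subtraction of the values per cell type.

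*ERN1* (ENSG00000178607.15), the gene of IRE1α, the sensor that splices *XBP1*, was the lowest of the 48 per kilobase of exon. Its levels were 18.2, 15.1 and 18.6 CPM in vehicle-treated promyelocytes and 16.4, 15.1 and 18.3 CPM with TNF-α, which overlap. In granulocytes they were 13.2, 16.4 and 14.3 CPM with vehicle and 22.5, 20.1 and 22.1 CPM with TNF-α, with no overlap. The log2 fold change was -0.05 ± 0.0987 (edgeR adjusted p = 0.769) in promyelocytes and 0.55 ± 0.0843 (adjusted p = 8.52e-07) in granulocytes, a difference of 0.65 ± 0.137 (adjusted p = 0.000808).

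*ATF4* (ENSG00000128272.14), the transcription factor of the integrated stress response, whose protein is made when eIF2α is phosphorylated, rose in granulocytes. It was at 386, 352 and 344 CPM in vehicle-treated promyelocytes and 367, 402 and 387 CPM with TNF-α, and these ranges overlap. It was at 242, 217 and 236 CPM in vehicle-treated granulocytes and 386, 368 and 328 CPM with TNF-α, all above the vehicle libraries. The granulocyte log2 fold change was 0.64 ± 0.055 (edgeR adjusted p = 1.9e-12), that in promyelocytes 0.09 ± 0.0609 (adjusted p = 0.351), and the difference 0.58 ± 0.0922 (adjusted p = 2.57e-05). With trends of GC content and gene length removed, the promyelocyte value was 0.17 and passed the test (adjusted p = 0.0132).

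The remaining 3 genes of this role moved less. *EIF2AK3* (ENSG00000172071.11) encodes PERK, the sensor that phosphorylates eIF2α. Its values were 25.7, 28.4 and 30.7 CPM with vehicle and 30.9, 29.6 and 29.1 CPM with TNF-α in promyelocytes, and 26, 27.9 and 26 against 28.7, 32 and 32 CPM in granulocytes. The groups overlapped in promyelocytes only, and the log2 fold change was 0.08 ± 0.0768 (edgeR adjusted p = 0.549) there and 0.22 ± 0.0675 (adjusted p = 0.00771) in granulocytes. *DDIT3* (ENSG00000175197.11), the gene of CHOP, a factor linked to apoptosis under lasting ER stress, was at 9.19, 10 and 8.25 CPM with vehicle and 9.04, 8.94 and 10.3 CPM with TNF-α in promyelocytes. In granulocytes *DDIT3* was at 11.1, 9.1 and 10.1 CPM with vehicle and 11.8, 13.3 and 12.4 CPM with TNF-α. The groups again overlapped in promyelocytes only, with a log2 fold change of 0.05 ± 0.113 (adjusted p = 0.836), against 0.32 ± 0.098 (adjusted p = 0.00737) in granulocytes. The *DDIT3* call in granulocytes was lost without vehicle library 2 or TNF-α library 2, over a range of 0.25 to 0.38, and neither its response nor that of *EIF2AK3* was shown to differ between the cell types (adjusted p = 0.146 and 0.23). *ATF6* (ENSG00000118217.5), the sensor that is cut in the Golgi to free a transcription factor, was the exception in granulocytes. It stood at 79, 78.4 and 79 CPM with vehicle and 85.8, 90.2 and 80.1 CPM with TNF-α in promyelocytes, and at 116, 114 and 116 against 109, 113 and 102 CPM in granulocytes. TNF-α libraries were all above vehicle in promyelocytes and all below in granulocytes, but neither the log2 fold change of 0.12 ± 0.0607 (adjusted p = 0.234) nor that of -0.10 ± 0.0506 (adjusted p = 0.118) passed the test. With total counts the granulocyte value was -0.23 and passed (adjusted p = 0.000282), whereas *EIF2AK3* at 0.09 (adjusted p = 0.314) and *DDIT3* at 0.18 (adjusted p = 0.121) did not. The *ATF6* interaction, -0.17 ± 0.0781, did not pass either (adjusted p = 0.111), although it did with DESeq2 (-0.23, adjusted p = 0.0161) and with total counts (-0.33, adjusted p = 0.00208).

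**Figure D2:**
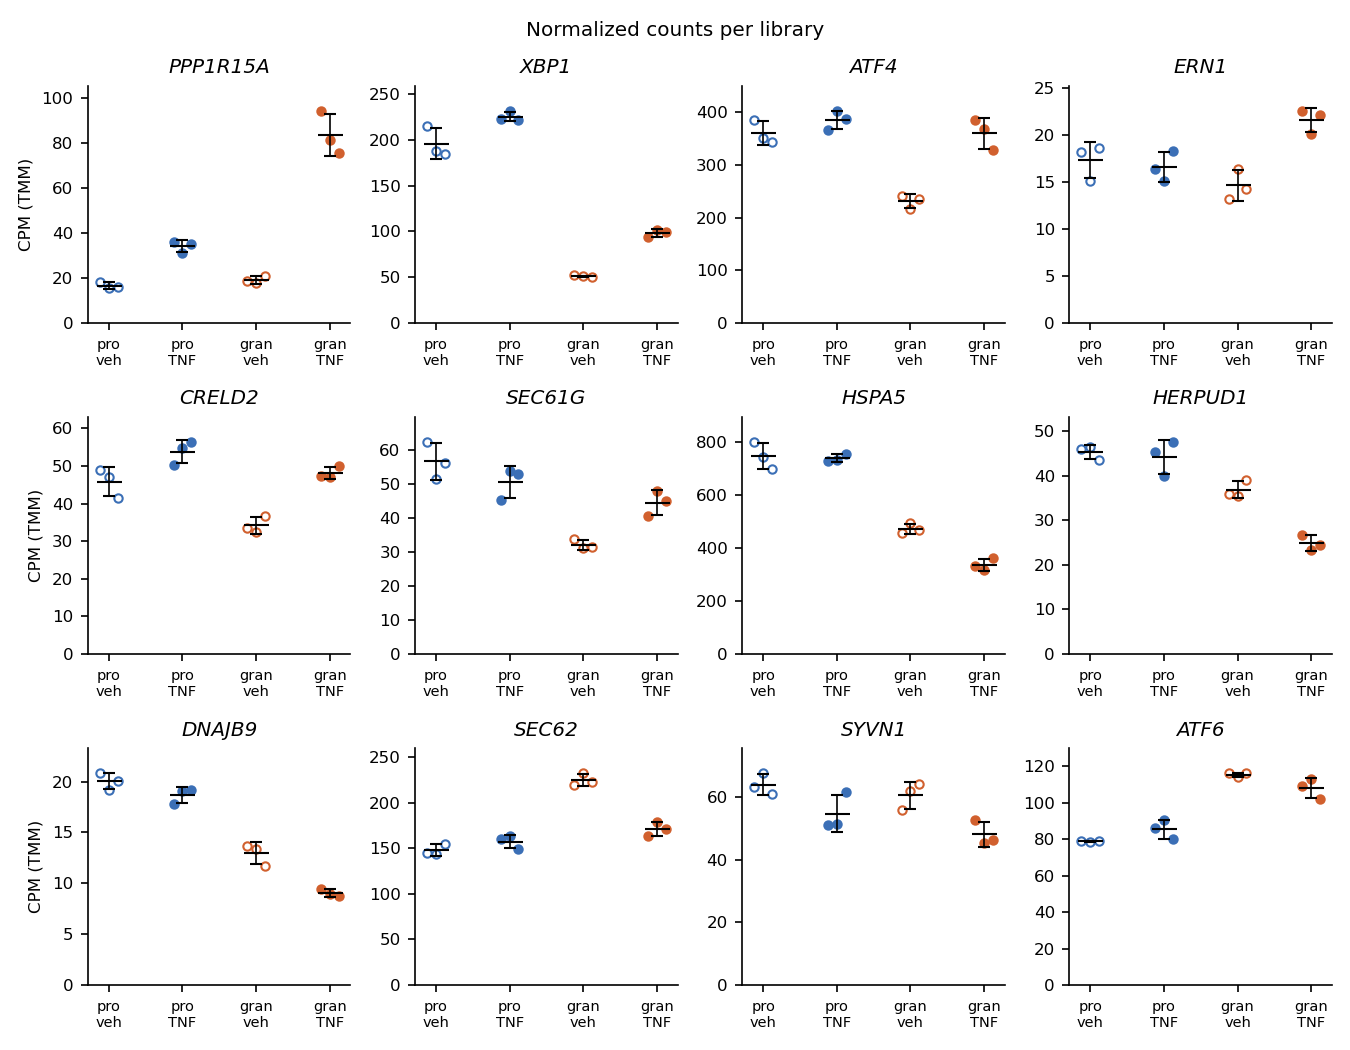
CPM on TMM library sizes of 12 of the genes in each of the 12 libraries (pro, promyelocytes; gran, granulocytes; veh, vehicle; open points, vehicle; filled points, TNF-α; black bars, mean ± SD of 3 libraries), with every axis starting at 0. *PPP1R15A* rose in both cell types, *XBP1*, *ATF4* and *ERN1* rose mainly in granulocytes, and *HSPA5*, *HERPUD1*, *DNAJB9* and *SEC62* fell in granulocytes while their promyelocyte groups lay close together.

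Of the chaperones, *HSPA5* and *DNAJB9* fell the most in granulocytes. *HSPA5* (ENSG00000044574.7) encodes BiP, the main Hsp70 of the ER and the classic target of the UPR. It was at 799, 744 and 700 CPM in vehicle-treated promyelocytes and 730, 731 and 757 CPM with TNF-α, within the same range. In granulocytes it was at 456, 493 and 469 CPM with vehicle and 332, 317 and 362 CPM with TNF-α, all below the vehicle libraries. The log2 fold change was -0.02 ± 0.06 (edgeR adjusted p = 0.895) in promyelocytes and -0.49 ± 0.0522 (adjusted p = 5.05e-10) in granulocytes, and the difference of -0.43 ± 0.0845 passed (adjusted p = 0.00035). *DNAJB9* (ENSG00000128590.4), the BiP cochaperone ERdj4, was at 20.8, 19.2 and 20.1 CPM with vehicle and 17.8, 19.1 and 19.2 CPM with TNF-α in promyelocytes. In granulocytes *DNAJB9* was at 13.7, 13.4 and 11.7 CPM with vehicle and 9.47, 8.92 and 8.79 CPM with TNF-α. TNF-α libraries lay below vehicle in both, narrowly in promyelocytes (-0.10 ± 0.0808, adjusted p = 0.47) and clearly in granulocytes (-0.51 ± 0.098, adjusted p = 3.53e-05).

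Another 3 chaperone genes rose in at least 1 cell type. *CRELD2* (ENSG00000184164.14), a secreted ER protein with disulfide isomerase activity, was at 49, 47 and 41.5 CPM with vehicle and 50.4, 54.8 and 56.3 CPM with TNF-α in promyelocytes, and at 33.4, 32.5 and 36.7 against 47.3, 47.2 and 50 CPM in granulocytes. Every TNF-α library was the higher in both, and the log2 fold changes were 0.23 ± 0.0709 (edgeR adjusted p = 0.0307) and 0.49 ± 0.0612 (adjusted p = 1.47e-08). *DNAJC10* (ENSG00000077232.17), ERdj5, a reductase that helps to open misfolded proteins, was at 188, 188 and 204 CPM with vehicle and 223, 226 and 210 CPM with TNF-α in promyelocytes, and at 209, 209 and 200 against 216, 229 and 242 CPM in granulocytes. These groups did not overlap either, with log2 fold changes of 0.19 ± 0.0583 (adjusted p = 0.0374) and 0.15 ± 0.05 (adjusted p = 0.0109). *DNAJB11* (ENSG00000090520.11), ERdj3, another BiP cochaperone, was at 80.7, 81.5 and 82.7 CPM with vehicle and 95.9, 102 and 100 CPM with TNF-α in promyelocytes, and at 64.6, 66.6 and 63.2 against 64.9, 68.6 and 66.6 CPM in granulocytes. Here the groups overlapped in granulocytes (0.04 ± 0.0531, adjusted p = 0.535) and not in promyelocytes (0.28 ± 0.0572, adjusted p = 0.00152), the largest promyelocyte rise among the 48 after *PPP1R15A*; 7.87% of the exon bases of *DNAJB11* are shared with another gene of the same strand. In promyelocytes the *CRELD2* call was lost without vehicle library 2 or 3 or TNF-α library 2 or 3 (0.17 to 0.28 over the 6 fits that leave out 1 library), and the *DNAJC10* call without vehicle library 1 or 2 or TNF-α library 1 or 2 (0.16 to 0.23). The *DNAJC10* value in promyelocytes was 0.10 with GC and length trends removed (adjusted p = 0.184) and 0.17 with total counts (adjusted p = 0.0662). In granulocytes that of *DNAJC10* was lost without vehicle library 3 or TNF-α library 3 (0.12 to 0.19) and with total counts (0.02, adjusted p = 0.739). *HSP90B1*, the ER Hsp90 known as GRP94, had a granulocyte log2 fold change of -0.12 ± 0.0485 (adjusted p = 0.0457), a call that was lost without any 1 of the 3 vehicle libraries or TNF-α library 1 or 2 (-0.13 to -0.09); the value was -0.05 with GC and length trends removed (adjusted p = 0.257). The lectin chaperones *CALR* and *CANX*, the large Hsp70 relative *HYOU1*, the cochaperones *DNAJC3* and *SDF2L1*, and *MANF* were called in neither cell type, with granulocyte log2 fold changes from -0.12 to 0.11, and *SDF2L1* was called lower there, at -0.28, with GC and length trends removed (adjusted p = 0.012). With total counts *DNAJC3*, at -0.20, and *SDF2L1*, at -0.25, were called lower (adjusted p = 0.00126 and 0.0283).

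Of the protein disulfide isomerases, *ERP29* (ENSG00000089248.6), a member without the active site cysteines, was at 182, 161 and 160 CPM with vehicle and 138, 146 and 152 CPM with TNF-α in promyelocytes. In granulocytes *ERP29* was at 167, 167 and 175 CPM with vehicle and 172, 166 and 165 CPM with TNF-α. Only the promyelocyte groups were apart, and the log2 fold change was -0.21 ± 0.0632 (edgeR adjusted p = 0.033) there and -0.02 ± 0.0479 (adjusted p = 0.754) in granulocytes. The promyelocyte call was lost without vehicle library 1 or 2 or TNF-α library 1 or 2, with values of -0.24 to -0.14. *PDIA3*, which works with calreticulin and calnexin on glycoproteins, and *ERP44*, which holds proteins back in the early secretory pathway, rose in granulocytes, both by 0.21 on the log2 scale (adjusted p = 0.000608 and 0.000808). *P4HB*, *PDIA4* and *PDIA6* were called in neither cell type. With total counts *PDIA3* and *ERP44* were both at 0.08 and lost the call (adjusted p = 0.166 and 0.206), and *ERP29* and *PDIA4*, both at -0.15, were called lower (adjusted p = 0.00685 and 0.0116).

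Genes of ER-associated degradation moved both ways in granulocytes. *HERPUD1* (ENSG00000051108.14), a membrane protein that gathers the degradation complex and is a well known target of the UPR, was at 46.1, 46.5 and 43.6 CPM with vehicle and 45.3, 39.9 and 47.5 CPM with TNF-α in promyelocytes, which overlap. In granulocytes it was at 36, 35.5 and 39.1 CPM with vehicle and 26.8, 23.3 and 24.4 CPM with TNF-α, all below. The log2 fold change was -0.04 ± 0.0704 (edgeR adjusted p = 0.786) in promyelocytes and -0.57 ± 0.068 (adjusted p = 5.26e-09) in granulocytes, the largest decrease of the 48 genes, and the difference was -0.50 ± 0.103 (adjusted p = 0.000651). *SYVN1* (ENSG00000162298.18), the gene of HRD1, the ubiquitin ligase of the main complex, was at 63.2, 67.6 and 61.1 CPM with vehicle and 51, 51.5 and 61.5 CPM with TNF-α in promyelocytes. In granulocytes *SYVN1* was at 55.8, 61.9 and 64.2 CPM with vehicle and 52.8, 45.4 and 46.4 CPM with TNF-α. The promyelocyte groups overlapped through TNF-α library 3 and the granulocyte groups did not, and the log2 fold changes were -0.23 ± 0.0728 (adjusted p = 0.0422) and -0.33 ± 0.062 (adjusted p = 2.27e-05). *SYVN1* was the single gene of the 48 that fell in both cell types; its promyelocyte call was lost with DESeq2 (adjusted p = 0.0525) and without vehicle library 1 or 2 or TNF-α library 1 or 2 (-0.32 to -0.18), it was -0.14 with GC and length trends removed (adjusted p = 0.0738), and 8.39% of its exon bases are shared with another gene of the same strand. Its partner *SEL1L* fell by 0.23 on the log2 scale in granulocytes. Of the mannosidase relatives that mark misfolded glycoproteins, *EDEM1* rose by 0.28 (adjusted p = 4.42e-06) while *EDEM2* fell by 0.27 (adjusted p = 0.000225) and *EDEM3* fell by 0.22 (adjusted p = 0.000437). *DERL1*, a channel component, and *VCP*, the ATPase that pulls proteins out of the membrane, had log2 fold changes of 0.15 and 0.14 in granulocytes. The call of *DERL1* was lost without vehicle library 1 or 2 (0.11 to 0.19) and that of *VCP* without vehicle library 1 (0.10 to 0.18).

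Genes of the translocon, TRAP and OST also moved both ways in granulocytes. *SEC61G* (ENSG00000132432.13), the smallest subunit of the SEC61 channel, was at 62.1, 51.3 and 56.1 CPM with vehicle and 45.1, 53.7 and 52.9 CPM with TNF-α in promyelocytes, and at 33.7, 31.2 and 31.3 against 40.4, 47.9 and 45 CPM in granulocytes. The promyelocyte groups overlapped and the granulocyte groups did not. The log2 fold change was -0.16 ± 0.0776 (edgeR adjusted p = 0.194) in promyelocytes and 0.47 ± 0.0648 (adjusted p = 1.08e-07) in granulocytes, and the difference of 0.67 ± 0.111 passed (adjusted p = 5e-05). With trends of GC content and gene length removed, the promyelocyte value was -0.21 and passed (adjusted p = 0.0393). *SEC62* (ENSG00000008952.16), which serves the entry of small and fully made precursors, was at 145, 144 and 155 CPM with vehicle and 160, 163 and 149 CPM with TNF-α in promyelocytes, and at 219, 232 and 223 against 163, 179 and 171 CPM in granulocytes. Here too only the granulocyte groups were apart, in the opposite direction to *SEC61G*, with log2 fold changes of 0.09 ± 0.059 (adjusted p = 0.385) and -0.39 ± 0.0495 (adjusted p = 1.77e-08) and a difference of -0.44 ± 0.075 (adjusted p = 6.49e-05). The channel subunit *SEC61B* rose with *SEC61G* in granulocytes, by 0.28 on the log2 scale (adjusted p = 6.7e-05), whereas the pore subunit *SEC61A1* was at 0.02 (adjusted p = 0.772). Of the TRAP subunits *SSR1* fell by 0.27 (adjusted p = 1.04e-05) and *SSR4* rose by 0.17 (adjusted p = 0.00907). Of the catalytic subunits of the OST, *STT3A*, which acts as proteins enter the ER, rose by 0.22 (adjusted p = 0.000217), and *STT3B*, which acts on sites that were skipped, fell by 0.13 (adjusted p = 0.0213). The *SSR4* call was lost without vehicle library 2 (0.11 to 0.23), and that of *STT3B* without vehicle library 2 or TNF-α library 1 or 3 (-0.15 to -0.11). With GC and length trends removed *SSR4* was at 0.07 (adjusted p = 0.243) and *STT3B* at -0.08 (adjusted p = 0.0745), and neither passed. *SEC63*, *SSR2*, *SSR3*, *RPN1*, *RPN2* and *DDOST* were called in neither cell type. With GC and length trends removed *SSR3*, *RPN1* and *RPN2*, at 0.12, 0.11 and 0.12, were called higher in granulocytes (edgeR adjusted p = 0.0104, 0.0242 and 0.0136).

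**Figure D3:**
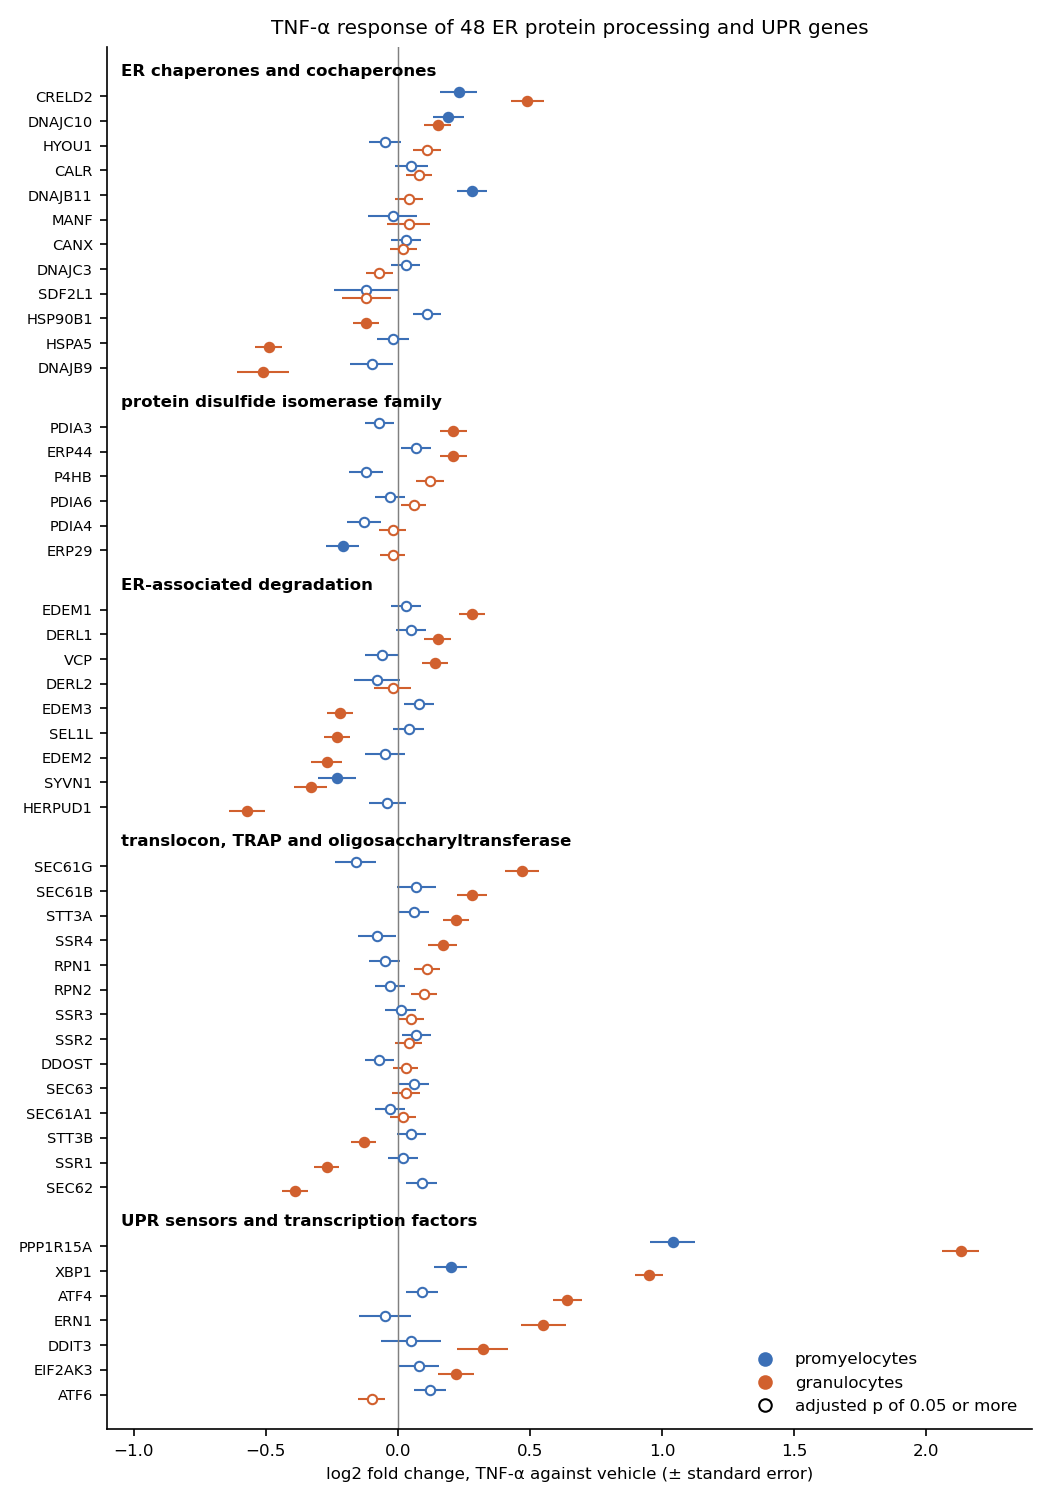
Log2 fold change (TNF-α against vehicle, ± SE) of the 48 genes in promyelocytes and granulocytes, grouped by role and ordered within a role by the granulocyte value; filled points passed the test and open points did not. Of the 7 sensors and transcription factors 6 lie to the right in granulocytes, up to 2.13 for *PPP1R15A*, while *HERPUD1*, *DNAJB9* and *HSPA5* reach -0.57, -0.51 and -0.49.

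Across all roles 5 genes were called in both cell types, each in the same direction: *DNAJC10*, *CRELD2*, *XBP1* and *PPP1R15A* rose and *SYVN1* fell. Of the promyelocyte calls among them, those of *DNAJC10* and *SYVN1* were lost with GC and length trends removed. The number called in opposite directions was 0, also 0 at an unadjusted p under 0.05 in both and 0 with DESeq2; 30 were called in at least 1 cell type and 18 in neither. A log2 fold change of at least 0.5 in either direction was seen for 6 genes in granulocytes (*PPP1R15A*, *XBP1*, *ATF4*, *ERN1*, *HERPUD1* and *DNAJB9*) and for 1, *PPP1R15A*, in promyelocytes. The groups did not overlap for 12 genes in promyelocytes, 9 with TNF-α above and 3 below, beside 31.1% of all genes, and for 29 in granulocytes, 17 above and 12 below, beside 55.2%. The test of the difference between the responses called 21 of the 48 genes (43.8%, beside 24% of all 18124 genes tested), with 13 higher and 8 lower in granulocytes than in promyelocytes. With DESeq2's size factors the split was 7 higher and 11 lower, and with total counts 5 and 13. Among all genes the higher and lower calls numbered 2561 and 1790, and 2128 and 2266 with those size factors.

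Levels between genes are compared as CPM per kilobase of exon (FPKM). In vehicle-treated promyelocytes the most abundant of the 48 were *CALR* at 603 ± 32.4 FPKM (SD, n = 3), *CANX* at 275 ± 6.96 and *P4HB* at 247 ± 13.9, followed by *HSPA5* at 191 ± 12.8 and *HSP90B1* at 170 ± 1.24. In vehicle-treated granulocytes *CALR* stood at 209 ± 4.51 FPKM, *P4HB* at 166 ± 7.96, *CANX* at 131 ± 6.05, *HSPA5* at 121 ± 4.84 and *HSP90B1* at 89.4 ± 1.7. The lowest were *ERN1*, at 1.59 ± 0.174 and 1.35 ± 0.153 FPKM, and *DERL2*, at 2.97 ± 0.198 and 3.57 ± 0.0236 FPKM. *XBP1* was at 64.6 ± 5.51 FPKM in vehicle-treated promyelocytes and 16.9 ± 0.281 in vehicle-treated granulocytes, and with TNF-α it reached 32.5 ± 1.33 FPKM in granulocytes, below its promyelocyte level. *ATF4* in granulocytes with TNF-α was at 144 ± 11.8 FPKM, beside 143 ± 8.99 in vehicle-treated promyelocytes. *PPP1R15A* started from 5.34 ± 0.495 and 6.17 ± 0.517 FPKM and reached 11 ± 0.896 and 27.1 ± 3.03. These levels are side by side and the cell types were not compared by a test. TMM factors were computed within each cell type, so the levels of the cell types are not on 1 common normalized scale.

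**Figure D4:**
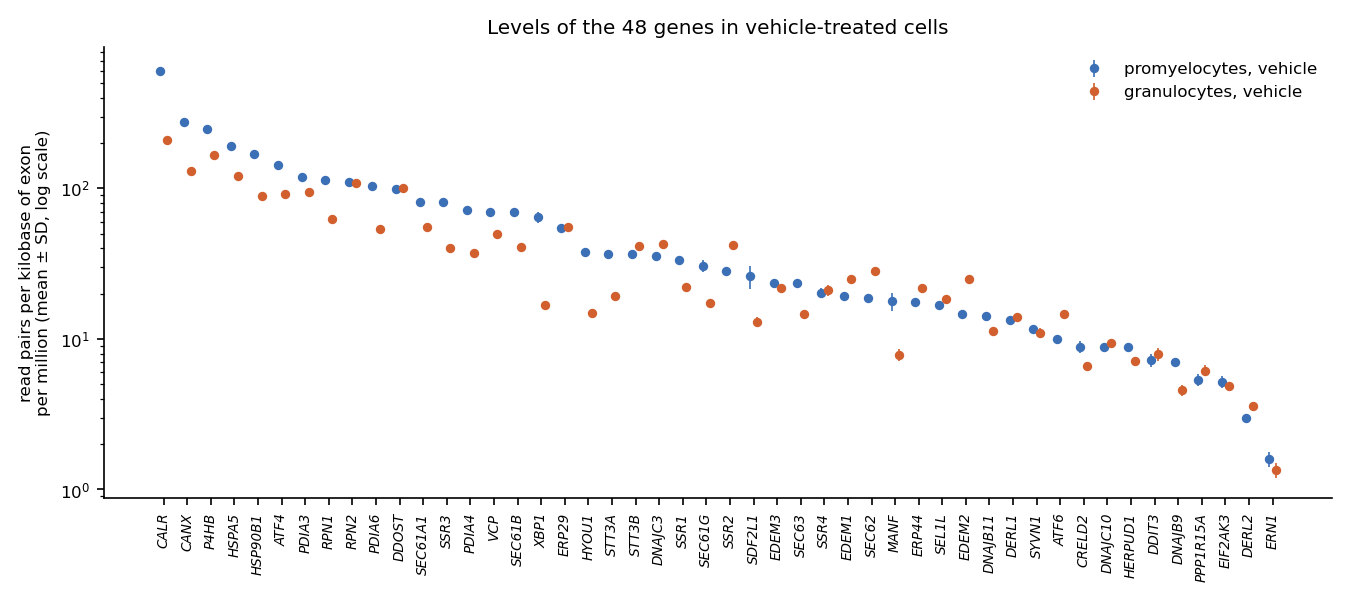
Level of each of the 48 genes in vehicle-treated promyelocytes and granulocytes, in FPKM on a log axis (points, mean of 3 libraries; bars, SD), ordered by the promyelocyte level. *CALR* is the highest in both cell types, at 603 and 209, and *ERN1* the lowest, at 1.59 and 1.35; the cell types come from separate experiments.

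Around these 48 genes, 127 other genes of the pathway were listed in 6 groups. Of them 7 rose and 17 fell in promyelocytes (19.4% of 124 tested) and 35 rose and 29 fell in granulocytes (52.5% of 122), beside 14.8% and 49.3% of all genes. By direction 5.65% were called higher and 13.7% lower in promyelocytes, beside 8.15% and 6.65% of all genes. Targets of ATF4 and CHOP had 2 increases and 7 decreases among 19 tested in promyelocytes (47.4%), and 8 and 5 among 17 in granulocytes (76.5%). In this list *ATF3*, a stress-induced transcription factor, went from 0.866 ± 0.0865 to 3.8 ± 0.635 CPM in granulocytes (log2 fold change 2.14, edgeR adjusted p = 5.21e-10). *JDP2*, a repressor of the AP-1 family, went the opposite way in the 2 cell types, from 22.1 ± 1.78 to 15.7 ± 0.885 CPM in promyelocytes (-0.49, adjusted p = 0.000391) and from 21.7 ± 0.913 to 55 ± 2.9 CPM in granulocytes (1.34, adjusted p = 5.31e-20). *DDIT4*, an inhibitor of mTORC1 signalling, did so as well, from 36.7 ± 2.81 to 56.2 ± 2.59 CPM in promyelocytes (0.62, adjusted p = 1.48e-06) and from 39.6 ± 3.04 to 31.7 ± 1.09 CPM in granulocytes (-0.32, adjusted p = 8.04e-05). *SLC7A11*, the cystine transporter, rose in both, from 23.2 ± 1.44 to 48.1 ± 4.66 CPM and from 313 ± 11.6 to 438 ± 18.6 CPM. The largest called decreases in this list were those of *ASNS* and *JDP2* in promyelocytes and of *VLDLR* and *PSAT1* in granulocytes.

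Of the 15 eIF2α kinases and phosphatase genes, 2 rose and 1 fell in promyelocytes and 4 rose and 4 fell in granulocytes. *PPP1R15B*, the constitutive counterpart of *PPP1R15A*, rose on the log2 scale by 0.25 (adjusted p = 0.0041) in promyelocytes and by 0.32 (adjusted p = 5.21e-07) in granulocytes, and the kinase *EIF2AK4* fell by 0.25 in granulocytes. Among 10 tested genes of ATF6 and OASIS factor processing, 1 rose and 1 fell in promyelocytes, and 2 rose and 6 fell in granulocytes. There *CREB3*, a membrane-bound factor of the OASIS type, rose by 0.88 (adjusted p = 3.34e-11) and its relative *CREB3L2* fell by 0.46 (adjusted p = 1.64e-09), both in granulocytes. With total counts the eIF2α list had 2 increases and 7 decreases in granulocytes, and the ATF6 and OASIS list 2 and 8. Called in granulocytes with TMM were 53.3% and 80% of these lists, beside 49.3% of all genes. In promyelocytes 20% of each was called, beside 14.8%.

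In the list of folding and glucose trimming, 1 of 25 genes rose and 2 fell in promyelocytes, and 5 rose and 5 fell in granulocytes. The peptidyl-prolyl isomerase *FKBP11* rose in both, from 16 ± 1.81 to 28.4 ± 1.44 CPM in promyelocytes and from 32.4 ± 2.4 to 47.2 ± 2.53 CPM in granulocytes (edgeR adjusted p = 7.24e-07 and 3.99e-09), and the thioredoxin relative *TMX4* fell in both. Of 30 further ERAD genes, 1 rose and 6 fell in promyelocytes, and 8 rose and 7 fell in granulocytes. *NPLOC4*, a cofactor of VCP, went from 134 ± 4.78 to 241 ± 6.67 CPM in granulocytes (0.84, adjusted p = 2.45e-17) and from 127 ± 1.13 to 147 ± 4.17 CPM in promyelocytes (0.21, adjusted p = 0.0111), and *ERLIN2*, which binds substrates in the ER membrane, went from 64.3 ± 1.82 to 40.9 ± 0.669 CPM in granulocytes (-0.65, adjusted p = 1.59e-12). Of 25 tested genes of signal recognition, the signal peptidase and the OST, 0 were called by edgeR in promyelocytes (0 at an unadjusted p under 0.05 and 0 with DESeq2). In granulocytes 8 rose, with *KRTCAP2* and *SRP19* the largest increases, and 2 fell, *GET1* and *SRP72*. *SRP72*, a protein of the signal recognition particle, fell by 0.24 (edgeR adjusted p = 7.06e-05). With total counts this list had 1 increase and 12 decreases in granulocytes. The list of folding and glucose trimming had 2 and 12, and that of further ERAD genes 6 and 11. Called in granulocytes with TMM were 40% of the folding list, 50% of the ERAD list and 40% of this list, beside 49.3% of all genes. In promyelocytes these shares were 12%, 23.3% and 0%, beside 14.8%. For scale, all 14 listed NF-κB target genes rose in both cell types, with median log2 fold changes of 3.74 and 4.94. Like the other lists, this list was chosen with earlier results of these data known, so it is no independent check of the treatment.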

How the data were processed

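Per the labels and methods, the authors depleted ribosomal RNA, read both ends of each fragment, aligned the pairs to hg38 with STAR 2.5.3a and counted read pairs per gene with featureCounts 1.5.2 on GENCODE version 27 (primary alignments, both ends mapped, strand option 2); the deposited values are raw counts. Primary alignments include reads with several best places. Symbols were added for 57532 of 58288 identifiers.

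Each cell type was fitted alone in edgeR 4.0.16 (R 4.3.3) with TMM sizes, filterByExpr (minimum count 10, minimum total 15) and the quasi-likelihood test; the difference of responses was the interaction in all 12 libraries. CPM and FPKM were computed on TMM sizes of each cell type alone, from 3 libraries per group. Log2 fold changes use a prior count of 0.125. At these depths 3 counts are 0.0941 to 0.131 CPM. The fits were tested on simulated data. Alternatives were DESeq2 1.42.0, its size factors, total counts, no filter, the replicate number as a block, removal of each library's GC and length trends, fits without 1 library, all 12 libraries in 1 fit, and a stricter threshold (0.01). The members and lists were chosen with earlier results of these data known. Values in every library were given for 8 genes fixed by name, the 5 largest called increases and decreases in each cell type and the 5 smallest interaction p-values. Of the other genes, up to 2 per list, direction and cell type could be named. The kappaB motif was added later. Protein sequences were not used here. Plots were drawn with matplotlib 3.10.9.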

Additional observations from a re-analysis of the deposited data

Results flagged for a closer look

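For 21 of the 48 genes the response to TNF-α differed between granulocytes and promyelocytes by the interaction test in edgeR, which called 24% of all genes tested. Values are log2 fold change in granulocytes minus that in promyelocytes, both from the 1 fit of all 12 libraries. They depart slightly from a subtraction of the values fitted in each cell type alone. Over all genes tested the median difference in that fit was 0.03. Of the sensors and transcription factors the differences were 1.13 for *PPP1R15A*, 0.78 for *XBP1*, 0.65 for *ERN1* and 0.58 for *ATF4*. Of the chaperones they were -0.43 for *HSPA5*, -0.37 for *DNAJB9*, -0.20 for *DNAJB11* and 0.30 for *CRELD2*. The protein disulfide isomerases stood at 0.31 for *PDIA3*, 0.28 for *P4HB* and 0.22 for *ERP29*. Genes of ER-associated degradation stood at -0.50 for *HERPUD1*, -0.26 for *EDEM3*, -0.23 for *SEL1L*, 0.29 for *EDEM1* and 0.25 for *VCP*. Those of the translocon, TRAP and OST stood at 0.67 for *SEC61G*, -0.44 for *SEC62*, -0.25 for *SSR1*, 0.29 for *SSR4* and 0.20 for *STT3A*. *P4HB* was called here and in neither cell type alone. With GC and length trends removed the differences of *P4HB*, *CRELD2*, *SSR4* and *DNAJB9* were 0.07, 0.10, 0.04 and -0.23 and did not pass the test. Those of *DNAJB11*, *SEL1L*, *EDEM3* and *VCP*, at -0.14, -0.13, -0.13 and 0.12, did not pass either. The differences of *P4HB*, *CRELD2*, *VCP* and *SSR4* did not pass in any of the 8 alternatives that kept all libraries. They were also lost in 5, 6, 8 and 8 of the 12 fits that left out 1 library. *ERP29* lost the call in 7 of the 8 alternatives and 9 of the 12 fits. *STT3A* lost it in 6 and 9, and *DNAJB11* in 4 and 10. Under every alternative setting and every fit that left out 1 library, 8 of the 21 were called: *HSPA5*, *HERPUD1*, *SEC61G*, *SEC62*, *ERN1*, *XBP1*, *ATF4* and *PPP1R15A*.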

How the results depend on the processing

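Every count of calls below is from edgeR unless DESeq2 is named. Of the calls in the 48 genes, 2 of 7 in promyelocytes (*DNAJB11* and *PPP1R15A*), 17 of 28 in granulocytes and 8 of 21 differences of responses were made under every alternative and every fit that left out 1 library. In promyelocytes the 5 increases became 2 with the replicate block and 2 at a threshold of 0.01, and the 2 decreases became 1 with DESeq2, 0 with the block (2 at an unadjusted p under 0.05), 0 with the block and GC and length trends removed (4 unadjusted) and 0 at 0.01. Of the other pathway genes there, the 7 increases became 12 with GC and length trends removed, and the 17 decreases 11 with the block and 6 at 0.01. In granulocytes total counts gave 8 increases and 18 decreases, 21 and 56 for the other pathway genes in place of 35 and 29, and a median gene of the 48 at 161 CPM with vehicle and 142 CPM with TNF-α. Differences of responses that were higher in granulocytes, 13 as reported, numbered 7 with DESeq2's size factors, 5 with total counts, 6 with no expression filter, 7 with DESeq2, 7 with the replicate block and 7 at 0.01, and the 8 lower ones 13 with total counts, 3 with the block and 3 at 0.01. For the other pathway genes the 22 higher ones numbered 11 with total counts, and the 13 lower ones 21 with the size factors, 36 with total counts, 24 with no filter and 23 with DESeq2. Total counts shift every fold change, and over all genes they moved the differences of responses by -0.15 at the median. The differences moved by -0.05 with DESeq2's size factors, -0.08 with no filter and -0.06 with DESeq2. They moved by -0.08 with GC and length trends removed and by 0 with the replicate block. The part of these shifts in the changed counts of calls was not tested, nor was the cause of the other changes. Leaving out 1 library at a time gave 2 to 4 increases and 0 to 2 decreases in promyelocytes, 15 to 18 and 9 to 10 in granulocytes, and 7 to 16 higher and 5 to 8 lower differences; for the other pathway genes these were 5 to 8 and 8 to 16, 32 to 34 and 26 to 29, and 17 to 26 and 10 to 13. In granulocytes *CANX* and *SEC61A1* turned to -0.11 and -0.11 with total counts, *PPP1CA* to -0.12 with total counts and -0.09 with GC and length trends removed, and *PRKCSH* to -0.13 and -0.10; the *PPP1CA* difference of responses turned to -0.03 with those trends removed and -0.03 with the block as well. Libraries with the same replicate number did not deviate together (correlations of their deviations from the group means from -0.233 to -0.00919), so the number was not taken as a pairing. The lowest count of the 48 genes was 195 read pairs; SEs of 0.098 in granulocytes for the low genes *DNAJB9* and *DDIT3* were above 0.0522 for *HSPA5*, and how much of this is depth was not tested.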
